A study of Rattus with 4 samples.

Results

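Genes of 6 families of ubiquitin ligases and deubiquitinases (Trim, Rnf, Fbxo, Fbxl, Fbxw and Usp) were compared between RNA precipitated with an antibody to NONO and the input RNA of rat cardiac cells. They were chosen by symbol alone: every protein-coding gene of the deposited count table whose symbol opens with one of these family names followed by a digit. This gave 195 of the 13731 listed genes, namely 61 Rnf, 39 Trim, 27 Fbxo, 15 Fbxl, 8 Fbxw and 45 Usp genes. One of them, Usp6nl, is named for a likeness to the N-terminal part of another Usp protein and is known as a GTPase-activating protein, not as a deubiquitinase.

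Ubiquitin is a small protein that is joined to other proteins by an activating enzyme, a conjugating enzyme and a ligase, and the ligase chooses the target. Trim and Rnf proteins are mostly RING ligases, which bring the loaded conjugating enzyme to the target directly, whereas F-box proteins (Fbxo, Fbxl with leucine-rich repeats, Fbxw with WD repeats) are the target-binding parts of cullin ligases. Usp proteins are proteases that take ubiquitin off again. In heart and skeletal muscle some of these ligases are known for their part in protein turnover during wasting.

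NONO is a nuclear RNA-binding protein, and in RIP-seq the RNA that comes down with a protein is sequenced beside the input. The 2 NONO IP libraries carry the antibody label anti-NONO and a cell type label of NONO siRNA transfection, and the 2 Input libraries carry no antibody and the label of an empty vector, so precipitation and knockdown cannot be told apart by these labels. Both groups share the same culture, which the growth protocol calls a cardiac fibroblast line of the rat; by the titles it is H9C2, a myoblast line from rat heart. No library with a control antibody was analysed here, and nothing says that the libraries of a group came from separate cultures, so p-values measure only the spread between these libraries.

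Gene counts summed to 279410 and 264059 in the NONO IP libraries and to 249548 and 238776 in the Input libraries. At this depth 3 reads correspond to between 10.2 and 15.9 CPM, which are read counts divided by library size after TMM scaling (a scaling that sets the typical gene equal between libraries). Nono itself had 3 and 3 reads in the NONO IP libraries and 21 and 9 in the Input libraries. Of 10 fibroblast markers 9 were listed, with 39711 reads in the NONO IP and 38075 in the Input, led by Col1a1. On the TMM scale that was a log2 ratio of −0.53, with 5 of 7 tested markers lower and 1 higher. The fibroblast marker Tcf21 had 6 and 2 reads in the NONO IP libraries and 2 and 3 in the Input libraries. Of 9 skeletal myoblast markers 2 were listed, with 7 reads in the NONO IP and 21 in the Input, and neither Myod1 nor Myog was found by symbol. Cardiomyocyte markers held 550 reads in the NONO IP and 280 in the Input, of which 69.3% fell on Atp2a2, a log2 ratio of 0.38 that was −0.053 without that gene, with 1 of 4 tested markers higher and 2 lower. Smooth muscle markers held 853 reads in the NONO IP and 1194 in the Input, with 4 of 5 tested lower. The part of these shifts in the results was not tested.

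Taken over all 195 genes, transcripts of these families were higher in the NONO IP. They held 1924 and 1677 reads in the NONO IP libraries and 861 and 861 in the Input libraries, which is 6253 ± 370 CPM in the NONO IP and 4496 ± 85.4 CPM in the Input (SD, n = 2 each). The ratio was 1.39, with an exact 95% interval of 1.31 to 1.48 that covers counting error only. All other protein-coding genes together stood at a ratio of 0.828 on the same scale, with collagen Col1a1 holding the most reads among them. In bulk RNA fewer cells of a type and less RNA per cell cannot be told apart. No test was made on pooled reads, since 2 libraries against 2 cannot give an exact two-sided permutation p below 0.333.

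The pooled ratio was uneven among the families, and the F-box receptors stood above the RING ligases and the deubiquitinases. Fbxl genes held 202 and 180 reads in the NONO IP libraries and 48 and 59 in the Input libraries, a pooled level of 663 ± 28.9 CPM in the NONO IP and 280 ± 45.9 CPM in the Input. Fbxo genes held 185 and 173 reads in the NONO IP and 63 and 62 in the Input, which is 622 ± 5.93 CPM in the NONO IP and 326 ± 2.51 CPM in the Input. Fbxw genes held 127 and 104 reads in the NONO IP and 43 and 45 in the Input. In log2 ratios of NONO IP to Input these 3 families stood at 1.25, 0.93 and 0.80, and in each of them both NONO IP libraries lay above both Input libraries.

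The RING and protease families moved less. Trim genes held 356 and 367 reads in the NONO IP libraries and 186 and 189 in the Input libraries, a log2 ratio of 0.36. Rnf genes, the most abundant family, held 649 and 517 reads in the NONO IP and 303 and 290 in the Input, a log2 ratio of 0.39. Usp genes held 405 and 336 reads in the NONO IP and 218 and 216 in the Input, a log2 ratio of 0.18 with a counting interval of the fold from 1.01 to 1.28. The NONO IP libraries were above the Input libraries in these families too. For the Usp genes, however, the means of 1286 CPM in the NONO IP and 1133 CPM in the Input lay closer together than the 2 NONO IP libraries. Those 2 libraries were at 1371 and 1200 CPM, against 1123 and 1143 CPM in the Input. The difference between families was not tested.

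**Figure D1:**
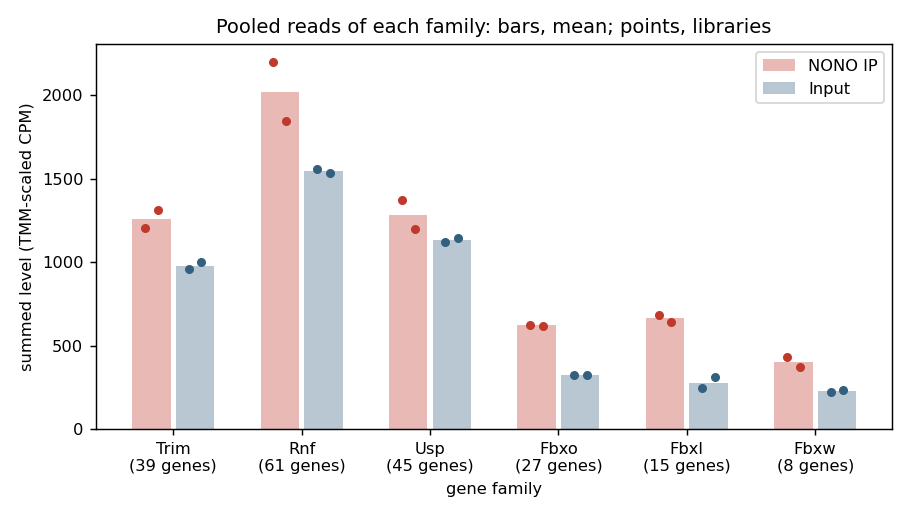
Summed level of each gene family (vertical axis, TMM-scaled CPM) in NONO IP and Input, with bars at the mean of 2 libraries and points at single libraries. The NONO IP points lie above the Input points in each family, and the gap relative to the level is largest for Fbxl (a fold of 2.37) and smallest for Usp (1.13).

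A single gene carried part of some of these sums. Fbxw4 held 30.4% of all Fbxw reads, and without it the Fbxw log2 ratio was 0.47. Without Fbxl17, which held 28.4% of the Fbxl reads, the Fbxl ratio was 1.10, and without Fbxo34 the Fbxo ratio was 0.69. The Trim, Rnf and Usp ratios without Trim56, Rnf149 and Usp9x were 0.34, 0.28 and 0.12.

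The direction of the pooled ratios rests on the scale. On the deposited RPKM scale, where the library totals of the NONO IP were 2.45 and 2.22 times that of Input replicate 1, the log2 ratio of summed RPKM was −0.27 for Trim, −0.39 for Rnf, −0.73 for Usp and −0.064 for Fbxw genes, but 0.38 for Fbxo and 0.40 for Fbxl genes. All other protein-coding genes stood at −1.07 on that scale, at −0.27 with TMM and at 0.16 with library totals. Relative to them the families were higher by 0.45 (Usp) to 1.52 (Fbxl) with TMM, by 0.45 to 1.52 with library totals and by 0.33 to 1.47 with RPKM.

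**Figure D2:**
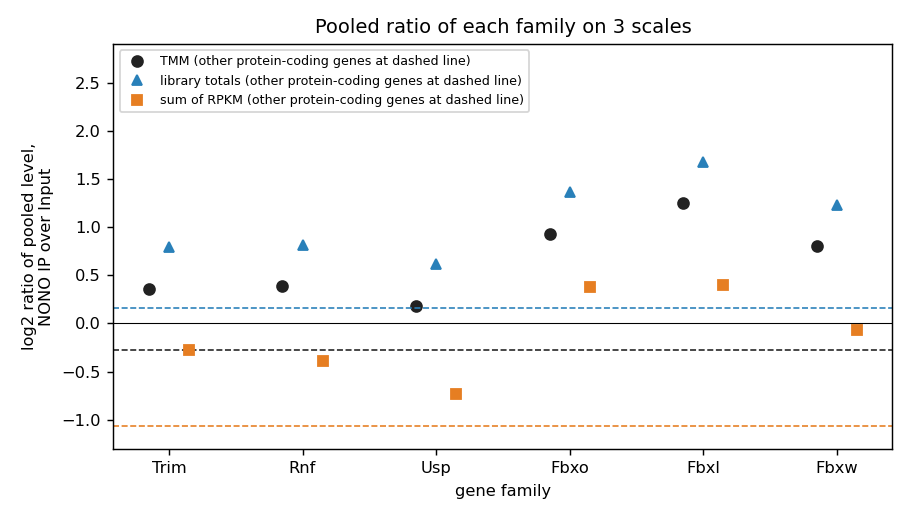
Log2 ratio of the pooled level of each family, NONO IP over Input (vertical axis), on 3 scales, with dashed lines at the ratio of all other protein-coding genes on each scale. Each family lies above the dashed line of its own scale, although Trim, Rnf, Usp and Fbxw lie below 0 on the RPKM scale.

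Most of these genes were thinly covered. The median gene had 13 reads summed over the 4 libraries, 81 of the 195 had fewer than 10, and the best covered, Rnf149, had 265. Reads were found on 170 and 167 of the genes in the NONO IP libraries and on 150 and 149 in the Input libraries. Both Input libraries were at 0 for 27 genes and both NONO IP libraries for 9. In 72 genes (36.9%) both NONO IP libraries lay above both Input libraries, against 22.5% of all listed genes, and in 32 (16.4%) they lay below, against 22.7%. The remaining 91 overlapped.

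**Figure D3:**
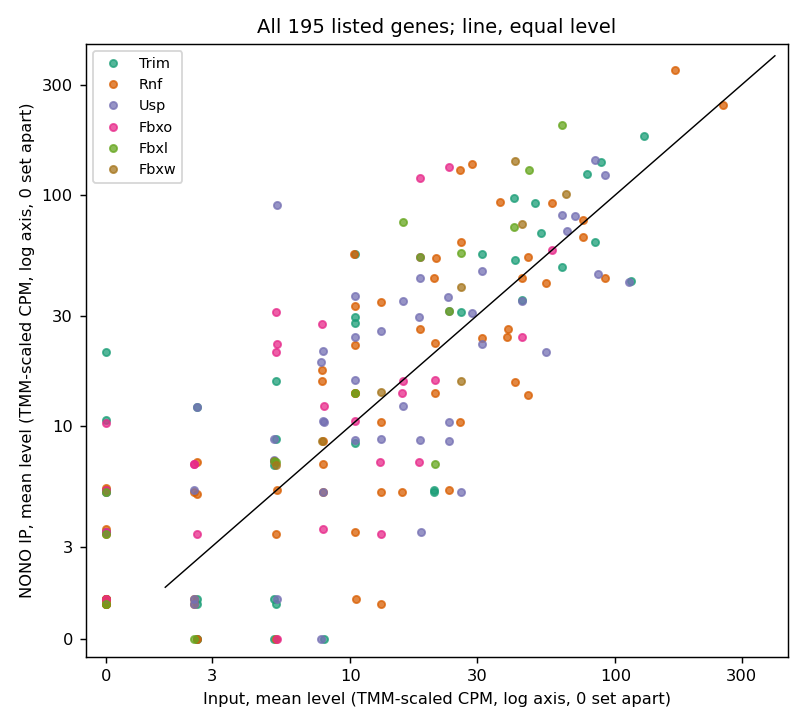
Mean level of each of the 195 genes in the NONO IP (vertical axis) against the Input (horizontal axis), in TMM-scaled CPM on log axes with 0 set apart, coloured by family. Many Fbxo and Fbxl genes lie above the line of equal level, and of the 2 most abundant genes Rnf149 lies above the line and Rnf10 just below it.

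Single genes were tested with edgeR's quasi-likelihood test on the whole table, with Benjamini-Hochberg adjustment over the 2920 genes that passed the count filter and a threshold of 0.05. Of the 195 genes 52 passed the filter, of which 18 were higher in the NONO IP, 4 were lower and 30 did not pass the test. That is 34.6% higher and 7.69% lower, against 29.8% and 26.9% of all genes tested and 27.3% and 27.7% of the protein-coding ones. With library totals in place of TMM, which put the median of all tested genes at 0.48 instead of 0.02, 31 were higher and 2 lower, so that higher genes made up 93.9% of the calls, against 81.8% with TMM. The share of all tested genes called with library totals is not given here, so these counts are not read as a result about the families. The 30 that did not pass ranged in log2 fold change from −0.42 to 1.23, with a median of 0.40. Of the 52, 32 had fewer than 23 Input reads, as did 15 of the 18 higher genes. That number is the smallest sum over the 4 libraries of any tested gene. The filter asks for enough reads in any 2 libraries, so many of these genes came through it by their NONO IP reads. Fbxo42, with 10 and 12 Input reads, did not need them. The counts of higher and lower genes therefore say little about the families. With no count filter 22 of the 195 (11.3%) were higher and 2 (1.03%) lower, against 8.59% and 4.73% of all 13731 genes, and the median log2 fold change was 0.60 over the 195 and 0.30 over all genes.

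Among the 18 higher genes 8 kept the call in all 12 fits on counts, which include other scalings, DESeq2, a gene length offset and leaving out each library. Among them were Fbxo11, Fbxo34, Fbxl19, Fbxw4, Rnf149, Rnf169 and Usp3. None of the 4 lower genes did, and each of these 4 lost the call with DESeq2. How many of all tested genes kept a call in all 12 fits was not counted. The deposited table places Fbxo11 on chromosome 6, Fbxo34 on 15, Fbxl19, Fbxw4 and Rnf169 on 1, Rnf149 on 9 and Usp3 on 8. DESeq2's Wald test called 9 of the 52 tested genes higher (17.3%), against 15.5% of all genes, and none lower, against 14.5%, with 2 lower at an unadjusted p under 0.05. On log2(RPKM + 1), limma called 6 of 116 genes higher, against 5.19% of all genes, and 11 lower, against 18.8%.

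**Figure D4:**
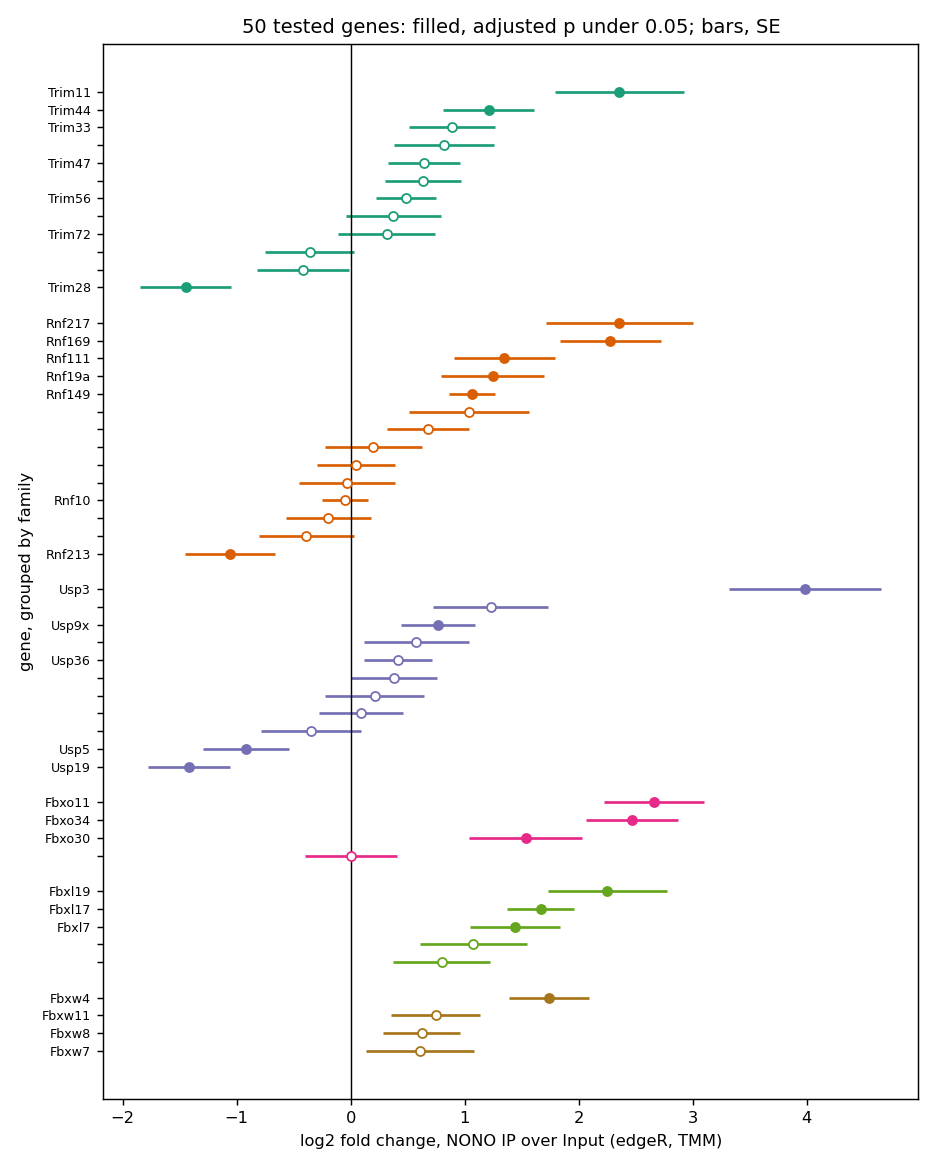
Log2 fold change of 50 of the 52 tested genes (horizontal axis, NONO IP over Input, edgeR with TMM), grouped by family, with bars of 1 SE, filled points for an adjusted p under 0.05 and names for the genes described in the text. Values run from −1.45 (Trim28) to 3.99 (Usp3). None of the tested Fbxo, Fbxl and Fbxw genes was called lower, against 26.9% of all tested genes. However, 4 of 4 tested Fbxo, 5 of 6 Fbxl and 3 of 4 Fbxw genes had fewer than 23 Input reads. Most of these passed the filter by their NONO IP reads, so the lack of lower calls says little about these families.

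Among RING ligases of the Rnf family, 6 of 15 tested genes were higher and 1 was lower, against 29.8% and 26.9% of all tested genes. Of the 15, 10 had fewer than 23 Input reads, so the filter leaned on their NONO IP reads. Rnf169, which binds ubiquitin-marked chromatin at DNA breaks, had 42 and 32 reads in the NONO IP libraries and 8 and 2 in the Input libraries (log2 fold change 2.28, SE 0.44, edgeR adjusted p = 0.000298). The Input libraries of Rnf169 lay far from each other, but both stayed well below both NONO IP libraries, and the value was 3.53 without Input replicate 1 and 1.61 without Input replicate 2.

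Rnf149, a membrane-spanning ligase, had the most reads of all 195 genes. It had 112 and 89 reads in the NONO IP and 31 and 33 in the Input, which is 349 ± 43.3 CPM in the NONO IP and 167 ± 10.6 CPM in the Input (log2 fold change 1.06, SE 0.20, adjusted p = 0.000269). A small nucleolar RNA gene that overlaps Rnf149, LOC120094944, was listed separately with 56 and 31 reads in the NONO IP and 0 and 2 in the Input (adjusted p = 1.07e-05). Its part in the Rnf149 value was not tested. Overlapping snoRNA genes are also annotated at Rnf169 and Rnf111 and an snRNA gene at Trim44, but these are not in the count table used here.

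Among the other higher Rnf genes were 3 with wider errors. Rnf217, a RING-between-RING ligase known to act on the iron exporter ferroportin, had 18 and 14 reads in the NONO IP and 4 and 0 in the Input (2.36, SE 0.65, adjusted p = 0.00514). Without Input replicate 2 its value was 1.39 and the call ended, and without Input replicate 1 the Input was at 0 and the fitted 6.83 depends on the prior count. Rnf111, or Arkadia, which removes inhibitors of TGF-β signalling, had 35 and 19 reads in the NONO IP and 5 and 9 in the Input (1.35, SE 0.44, adjusted p = 0.0152). Rnf19a, another RING-between-RING ligase, was at 19 and 17 reads in the NONO IP and 4 and 6 in the Input (1.24, SE 0.45, adjusted p = 0.0258). With 1 library left out Rnf111 ranged from 0.88 to 1.83. The call of Rnf111 ended without NONO IP replicate 1 and without Input replicate 1, and that of Rnf19a also without NONO IP replicate 2; all 3 genes lost it with DESeq2. Rnf111 and Rnf19a were added to the genes named by rule after their values were seen.

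Rnf213, a giant ligase with an AAA-type ATPase core that is linked to moyamoya disease in humans, was the lower Rnf gene. It had 10 and 15 reads in the NONO IP and 14 and 21 in the Input (log2 fold change −1.06, SE 0.39, adjusted p = 0.0289). The 2 groups do not overlap once scaled but nearly touch, at 53.6 CPM in the higher NONO IP library and 72.1 CPM in the lower Input library. With 1 library left out the value ranged from −1.42 to −0.74, and the call ended without NONO IP replicate 1, without Input replicate 2, with library totals, with no count filter and with DESeq2. Rnf10, a ligase for ribosomal proteins and the second most read gene, had 81 and 61 reads in the NONO IP and 54 and 44 in the Input. Its scaled levels overlapped, at 246 ± 39.8 CPM in the NONO IP and 256 ± 32.1 CPM in the Input (−0.05, SE 0.20, adjusted p = 0.842).

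Trim genes were mostly not called: of 12 tested, 2 were higher, 1 was lower and 9 did not pass. Over all tested genes 29.8% were higher and 26.9% lower. Of the 12 Trim genes, 6 had fewer than 23 Input reads. Trim11, a RING ligase linked to protein quality control, had 19 and 13 reads in the NONO IP and 2 and 2 in the Input (log2 fold change 2.36, SE 0.56, adjusted p = 0.00189), and lost the call with DESeq2. Trim44, which has a ubiquitin-binding zinc finger in place of a RING, had 31 and 25 reads in the NONO IP and 11 and 5 in the Input (1.21, SE 0.40, adjusted p = 0.0159). That call ended without NONO IP replicate 1, without Input replicate 2, where the value was 0.76, and with DESeq2; without Input replicate 1 it was 1.85. Trim39 was below the count filter, with 5 and 7 reads in the NONO IP and 0 and 0 in the Input. With the Input set at a floor of 3 reads over the group the ratio was 2.66, which leaves out the counting error of the NONO IP reads.

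Trim28, the corepressor that KRAB zinc finger proteins recruit to chromatin, fell. It had 7 and 17 reads in the NONO IP and 22 and 22 in the Input, which is 42.2 ± 26.2 CPM in the NONO IP and 115 ± 2.18 CPM in the Input (log2 fold change −1.45, SE 0.40, adjusted p = 0.00493). Both NONO IP libraries were below both Input libraries but lay far from each other, and without NONO IP replicate 1, the lower of them, the value was −0.91 and the call ended, as it did with DESeq2; without NONO IP replicate 2 it was −2.25. The most read Trim genes, Trim56 and Trim47, did not pass. Trim56, a ligase of antiviral signalling, had 45 and 58 reads in the NONO IP and 24 and 25 in the Input (0.49, SE 0.26, adjusted p = 0.125), and Trim47 had 47 and 33 in the NONO IP and 22 and 12 in the Input (0.64, SE 0.32, adjusted p = 0.0913).

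F-box genes held several of the highest folds. Fbxo11, whose cullin ligase is known for the transcription factor BCL6 as a target, had 35 and 33 reads in the NONO IP and 4 and 3 in the Input (log2 fold change 2.66, SE 0.44, adjusted p = 6.65e-05). Fbxo34 had 36 and 40 reads in the NONO IP and 4 and 5 in the Input (2.47, SE 0.40, adjusted p = 6.08e-05). These were the 2 genes of the 195 that were called in every fit, those on RPKM included. The 4 libraries split into groups far apart for both, with the lowest NONO IP library at 118 CPM and the highest Input library at 26.5 CPM.

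Fbxl17, whose protein removes wrongly paired BTB-domain dimers, was the most read F-box gene, with 60 and 55 reads in the NONO IP and 10 and 14 in the Input (1.67, SE 0.29, adjusted p = 0.000131). Its relative gene length was 11.8 times that of the median protein-coding gene, and an offset for gene length brought its log2 fold change to −0.086 and ended the call. Fbxl19, with a CXXC domain that binds CpG islands, had 27 and 17 reads in the NONO IP and 2 and 4 in the Input (2.25, SE 0.52, adjusted p = 0.00154). Fbxl7, reported to target the mitotic kinase Aurora A, had 38 and 36 reads in the NONO IP and 4 and 14 in the Input (1.44, SE 0.39, adjusted p = 0.00488). The Input libraries of Fbxl7 stood apart, and without Input replicate 1 its value was 0.78 and the call ended, as it did with DESeq2; without Input replicate 2 it was 2.60.

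Fbxw4, mapped to a limb malformation locus in humans and mice, was the 1 Fbxw gene called, with 44 and 37 reads in the NONO IP and 6 and 10 in the Input (log2 fold change 1.74, SE 0.35, adjusted p = 0.000471). Fbxw8, a partner of the cullin Cul7, had 33 and 25 reads in the NONO IP and 14 and 11 in the Input and did not pass (0.62, SE 0.34, adjusted p = 0.122). Of the 2 substrate receptors best known for cell cycle and signalling targets, Fbxw7 was at 0.61 (SE 0.47) and Fbxw11 at 0.74 (SE 0.39), and neither passed. In the list of 10 F-box genes with well-known targets, the pooled log2 ratio was 1.02; 6 were tested, of which 5 had fewer than 23 Input reads, and 2 were higher and none lower by edgeR, a share near the 29.8% called higher over all tested genes.

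Deubiquitinases went both ways, with 2 of 11 tested Usp genes higher, 2 lower and 7 not passing. Over all tested genes 29.8% were higher and 26.9% lower. Of the 11 Usp genes, 4 had fewer than 23 Input reads. Usp3, a histone deubiquitinase, had the largest fold of the 195 genes, with 24 and 28 reads in the NONO IP and 0 and 2 in the Input. With so few Input reads the ratio was 17.3 with an exact 95% counting interval of 4.56 to 147 (log2 fold change 3.99, SE 0.67, adjusted p = 8.03e-05), and without Input replicate 1 the log2 fold change was 3.03. Usp9x, a large X-linked deubiquitinase, had 52 and 30 reads in the NONO IP and 17 and 15 in the Input (0.77, SE 0.32, adjusted p = 0.0496). Its call stood at the threshold, and ended without NONO IP replicate 1, where the value was 0.36, without either Input replicate, with a length offset and with DESeq2.

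Usp19, an endoplasmic reticulum membrane deubiquitinase, had 10 and 14 reads in the NONO IP and 21 and 22 in the Input, which is 41.9 ± 11.4 CPM in the NONO IP and 112 ± 5.83 CPM in the Input (log2 fold change −1.42, SE 0.36, adjusted p = 0.00303). It kept the call in every fit but DESeq2. Usp5, which takes apart free ubiquitin chains, had 12 and 14 reads in the NONO IP and 19 and 14 in the Input (−0.92, SE 0.38, adjusted p = 0.0449), and lost the call without either NONO IP replicate, without Input replicate 1, with library totals, with no count filter, with a length offset and with DESeq2. Usp36, a nucleolar deubiquitinase and the second most read of the family, had 34 and 36 reads in the NONO IP and 15 and 20 in the Input and did not pass (0.41, SE 0.30, adjusted p = 0.248).

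**Figure D5:**
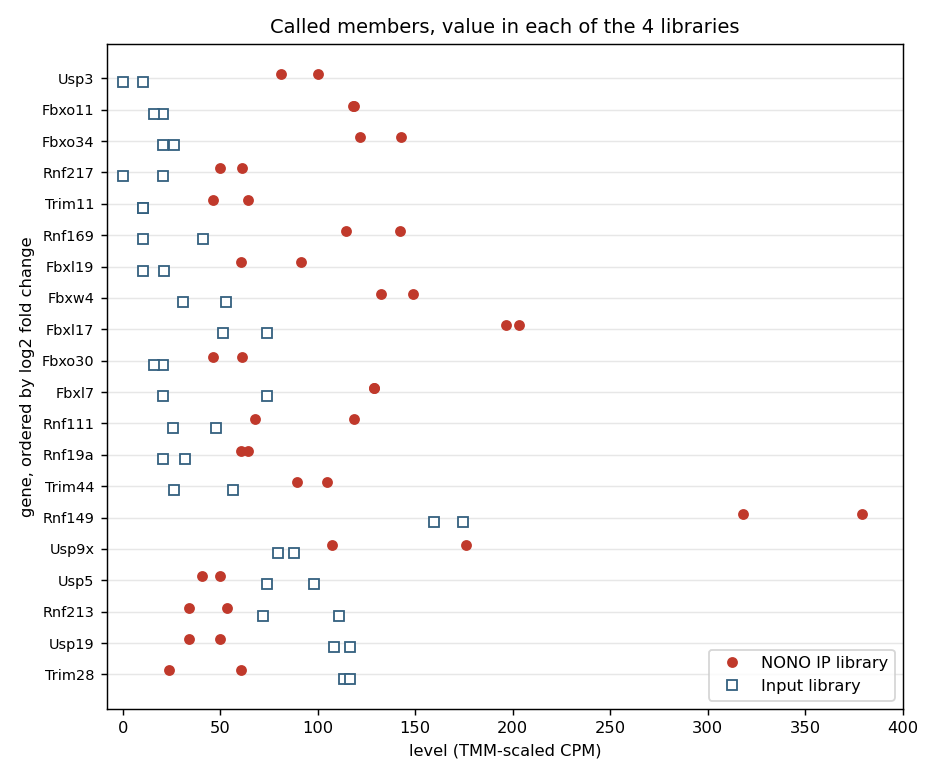
Level (horizontal axis, TMM-scaled CPM) of 20 of the 22 called genes in each NONO IP library (filled circles) and each Input library (open squares), ordered by log2 fold change. The groups do not overlap for these genes, with Rnf149 at the highest levels, and Trim28, Usp19, Rnf213 and Usp5 at the bottom have the Input on the right.

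Levels between genes can be set side by side only per length, on the RPKM scale. Rnf10 was the highest in both groups, at 25.6 ± 3.36 RPKM in the NONO IP and 42.2 ± 5.03 RPKM in the Input (SD, n = 2 each). In the NONO IP it was followed by Rnf149 at 23.1 ± 2.16, Trim44 at 20.5 ± 1.70 and Trim47 at 20.3 ± 3.66 RPKM, but both Rnf10 values lay above both values of Trim44 and of Trim47, whereas Rnf10 overlapped Rnf149, and Rnf149, Trim44 and Trim47 overlapped each other. In the Input Rnf10 stood clear of Trim47 at 20.5 ± 8.05, Trim28 at 17.6 ± 0.453, Usp22 at 17.6 ± 7.91 and Rnf149 at 17.6 ± 1.22 RPKM, which overlapped each other. Trim28 was not among the leading genes of the NONO IP, at 4.14 ± 2.67 RPKM. Relative gene length went with the log2 fold change less among the tested genes of these families (Spearman rho 0.07, n = 52) than among all tested genes (0.26, n = 2920). Among all tested protein-coding genes rho was 0.32 (n = 2777). These values are a description across genes.

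Grouped by function, the 24 listed genes known for chromatin roles held 264 and 229 reads in the NONO IP libraries and 130 and 130 in the Input libraries, a pooled log2 ratio of 0.33. Their median log2 fold change with no count filter was −0.30, and both NONO IP libraries lay above both Input libraries in 7 of them and below in 7. Of 8 tested, 6 had fewer than 23 Input reads; Rnf169, Rnf111, Usp3 and Fbxl19 were higher and Trim28 was lower. The 20 membrane-bound ligases and deubiquitinases stood at 0.57, or 0.27 without Rnf149, with Rnf149, Rnf19a and Rnf217 higher and Usp19 lower of 6 tested. Of these 6, 4 had fewer than 23 Input reads. Over all tested genes 29.8% were called higher and 26.9% lower, to be set beside the calls in each list given here. Of the 6 genes known to act on TGF-β or BMP signalling, 3 were tested, of which 2 had fewer than 23 Input reads. Rnf111 and Usp9x were higher, and both lost the call with DESeq2. Trim33, a ligase of Smad4, was at 0.89 (SE 0.38, edgeR adjusted p = 0.0546). The 7 genes with RNA-linked roles pooled to 0.22, but 68.2% of their reads fell on Trim56, the 1 gene tested, which did not pass, and without it the ratio was −0.31.

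The muscle ligases, of which 6 of 9 were listed, were thinly covered. Trim63 (MuRF1), which marks sarcomere proteins for degradation, had 1 and 0 reads in the NONO IP and 0 and 0 in the Input, and Trim55 had 1 and 2 in the NONO IP and 0 and 0 in the Input. Fbxo32 (atrogin-1), the other leading ligase of muscle wasting, had 6 and 6 reads in the NONO IP and 1 and 1 in the Input, a ratio of 4.0 with a counting interval of 0.89 to 36.8. Trim32 had 1 and 2 reads in the NONO IP and 6 and 2 in the Input, a ratio of 0.25 with an interval of 0.043 to 1.04. Trim72 (MG53), a membrane repair protein of striated muscle, had 15 and 15 reads in the NONO IP and 6 and 10 in the Input (log2 fold change 0.32, SE 0.43, adjusted p = 0.549), and the groups overlapped. Fbxo30 (MUSA1) was the 1 muscle gene called, with 18 and 13 reads in the NONO IP and 4 and 3 in the Input (1.53, SE 0.50, edgeR adjusted p = 0.0141). The call of Fbxo30 ended without NONO IP replicate 1, without either Input replicate and with DESeq2. The 2 tested muscle genes, Trim72 and Fbxo30, both had fewer than 23 Input reads. Among all tested genes 29.8% were higher and 26.9% lower, so 1 call of 2 says little about this list.

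Other parts of the ubiquitin pathway gave the setting. The ubiquitin genes and activating enzymes were lower, at a pooled log2 ratio of −1.20. Of 5 tested genes 2 fell and none rose by edgeR, among them the ubiquitin gene Ubb with 5 and 3 reads in the NONO IP and 25 and 35 in the Input (−3.45, SE 0.43, adjusted p = 3.92e-06). Ubb has near-identical copies that can share reads. Conjugating enzymes were higher, with 505 and 489 reads in the NONO IP and 181 and 170 in the Input over 32 listed genes, a pooled log2 ratio of 0.92. Of 10 tested, 7 rose and none fell by edgeR, against 29.8% and 26.9% of all tested genes, among them Ube2r2, a partner of cullin ligases, with 69 and 85 reads in the NONO IP and 10 and 9 in the Input (2.42, SE 0.30, adjusted p = 3.27e-06), and Ube2g1 (3.23, SE 0.49). Of the 10 tested genes 6 had fewer than 23 Input reads.

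HECT ligases, which carry ubiquitin on themselves before passing it on, went both ways, with 3 of 12 tested genes higher and 5 lower and a pooled log2 ratio of −0.34, or −0.13 without Nedd4. Nedd4 had 35 and 31 reads in the NONO IP and 74 and 74 in the Input (−1.75, SE 0.20, adjusted p = 1.54e-06), and Huwe1 changed by −1.58 (SE 0.27). The cullin core had 2 of 6 genes higher and 2 lower at a pooled −0.50, or −0.032 without the most read gene, the adaptor Ddb1, which had 14 and 15 reads in the NONO IP and 45 and 53 in the Input (−2.33, SE 0.28). Higher were the F-box gene Btrc at 2.05 (SE 0.54) and the neddylation factor Dcun1d3 at 2.09 (SE 0.55). Other RING and U-box ligases had 8 of 22 higher and 5 lower at a pooled 0.09, which was −0.067 without Arih1, the most read of them. Among the higher were Siah1 at 3.63 (SE 0.51) from 47 and 31 reads in the NONO IP and 2 and 2 in the Input, and Arih1 at 1.50 (SE 0.19), and among the lower was Ubr4 at −1.20 (SE 0.19). Ddb1 and Ubr4 were named with their values known. Deubiquitinases outside the Usp family had 1 of 4 higher and 1 lower at a pooled 0.10, with Zranb1 at 2.45 (SE 0.48). Over all tested genes 29.8% were higher and 26.9% lower. Beside this, 25% of the tested HECT genes were higher and 41.7% lower. The cullin core had 33.3% each way, the other RING and U-box ligases 36.4% and 22.7%, and the other deubiquitinases 25% each way. The differences between these lists and the 6 families were not tested.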

How the data were processed

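RNA of 4 RIP-seq libraries, 2 NONO IP and 2 Input, was grouped by sample title; per the labels' protocols it was DNase-treated, captured by poly(A) and made into stranded libraries. The authors deposited unnormalised whole-number counts for each gene and, beside them, RPKM values scaled for gene length and library size. HISAT2, HOMER and mRatBN7.2 are named in the submitters' processing notes; which program counted, with which strand setting and with what handling of reads with several positions, is not stated there, so near-identical copies and overlapping genes are uncertain.

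The members and lists were chosen with earlier results of these data known. Genes were tested with edgeR 4.0.16 (R 4.3.3), TMM and filterByExpr, in which 2920 genes passed; SE is the log2 fold change over the root of F. Pooled levels sum the reads of all listed genes of a family, tested or not. Counting ratios use exact conditional intervals that cover counting error only, as no molecular identifiers are named. A group at 0 reads was set at a floor of 3 reads, and the ratio from it has no interval. Relative length is counts over RPKM. RefSeq names of GRCr8 matched 193 genes by symbol and 2 by an older symbol, and gave overlapping genes. Named were, per family, up to 3 genes with the smallest adjusted p in each direction and the 2 most read, members at 0 in 1 group with at least 10 reads in the other, muscle genes with at least 10 reads, and up to 2 genes per other pathway list on the side with more calls. Alternatives used DESeq2 1.42.0 and limma 3.58.1. Some genes that these rules name are not reported here. The edgeR step was tested on simulated data. Replicates differed by a chi-square per degree of freedom of 1.42 in the NONO IP and 1.12 in the Input, where 1 is sampling noise, and were kept as 2 per group.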

Additional observations from a re-analysis of the deposited data

How the results depend on the processing

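The 18 higher and 4 lower genes became 31 and 2 with library totals, 22 and 2 with no count filter over all 195 genes, 9 and 0 with DESeq2's Wald test (2 lower at an unadjusted p under 0.05), 6 and 11 on log2(RPKM + 1) and 4 and 3 on log2(RPKM + 0.1), both over 116 genes with another filter and test; of the 11 lower genes 8 were not tested on counts. Calls higher made up 81.8% of calls with TMM, 93.9% with library totals and 35.3% on log2(RPKM + 1), where the median of all genes tested lay at −0.61. DESeq2 size factors gave 18 and 4, a length offset 19 and 3 with and without the block, and leaving out 1 library 12 to 17 higher and 1 to 3 lower. For these the lone library of a group is assumed to vary like the other group. The causes were not tested.

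The replicate block gave 19 higher and 4 lower genes and changed no call among the 22; the labels share only a number, and same-numbered libraries deviated together at a correlation of 0.0508.

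Pooled log2 ratios with library totals were 0.79 (Trim), 0.82 (Rnf), 0.61 (Usp), 1.36 (Fbxo), 1.68 (Fbxl), 1.23 (Fbxw) and 0.91 (all). With summed RPKM they were −0.27, −0.39, −0.73, 0.38, 0.40, −0.064 and −0.27 in the same order. Without the most read gene Fbxo was at 0.69 and Fbxw at 0.47. With 1 library left out all families together ranged from 0.41 to 0.54.

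The sign of these named genes turned, none with a call in that setting. On log2(RPKM + 1) and log2(RPKM + 0.1) Trim56 was −0.16 and −0.18, Usp36 −0.21 and −0.23, Fbxw8 −0.033 and −0.038 and Trim72 −0.26 and −0.29. Rnf10 was 0.41 with library totals, 0.16 with no filter, 0.23 with a length offset and 0.23 with the block too, and 0.10 and 0.07 without NONO IP replicate 2 or Input replicate 1. Fbxl17 was −0.086 with a length offset and −0.084 with the block too, and Trim72 was −0.033 without Input replicate 1 and 0.73 without Input replicate 2. With 3 reads at 10.2 to 15.9 CPM, depth limits the 143 genes under the filter, of which 3 were called with no filter.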

Other observations

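The 143 genes below the count filter, none of which had more than 39 reads, held 924 reads in the NONO IP and 581 in the Input, a pooled log2 ratio of 0.08. With no filter 3 of them, named after their values were seen, were called higher by edgeR. These were Fbxo45, an F-box protein of the synapse, with 10 and 8 reads in the NONO IP and 1 and 1 in the Input, Usp33, with 11 and 10 in the NONO IP and 3 and 1 in the Input, and Trim39. The counting ratio was 5.99 (95% interval 1.43 to 53.3) for Fbxo45 and 3.50 (1.18 to 14.0) for Usp33. Usp22, the deubiquitinase of the SAGA coactivator, was also below the filter, with 6 and 6 reads in the NONO IP and 14 and 7 in the Input, a log2 fold change of −1.16 in the fit over all genes, in which it was not called. Of 193 genes with 1 annotated position, 97 overlap another annotated gene, as do 15 of the 22 called genes, 5 of them a protein-coding gene.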
